A study of Homo sapiens with 6 samples.

Results

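The dual-specificity MAP kinase phosphatases are enzymes that switch off the kinases ERK, JNK and p38. They were taken from the gene table by name: DUSP1, DUSP2, DUSP4, DUSP5, DUSP6, DUSP7, DUSP8, DUSP10, DUSP14 and DUSP16; these are 10 of its 58735 genes and 10 of its 24 rows named DUSP with a number. They were selected on gene name with their FPKM in the inhibitor and DMSO libraries already known, so their own differences are given as a description and carry no test. The data are 6 RNA-seq libraries whose label is BxPC-3, a human pancreatic adenocarcinoma cell line, grown in RPMI-1640 with serum. In 3 libraries the cells had received DMSO, the solvent control, and in 3 GSK3326595, a small-molecule inhibitor of the arginine methyltransferase PRMT5, with dose and duration not given in the sources used here. Both groups share the line and the medium, and the library labels name no genetic change for either, although the series' design text speaks of a knockdown. Separate cultures are not named for the replicates, and the p-values below therefore measure only the spread between these libraries, which may be technical.

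MAP kinases become active when a threonine and a tyrosine of their activation loop are both phosphorylated, and a dual-specificity phosphatase removes both phosphates. DUSP1, DUSP2, DUSP4 and DUSP5 are inducible nuclear enzymes, DUSP6 and DUSP7 are cytoplasmic and prefer ERK, DUSP8, DUSP10 and DUSP16 prefer JNK and p38, and DUSP14 is a small atypical enzyme without the amino-terminal kinase-binding domain of the others. Several of these genes are themselves transcribed in response to MAP kinase activity, so that their transcripts are part of a negative feedback loop and are often read as a sign of pathway output.

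The stretches before the start sites of 3 members are shown. Cyclic AMP response elements (CRE) are a known feature of the DUSP1 promoter, DUSP8 carries such matches too, and DUSP16 is an example of a member without one. Each line gives the 250 bases before the annotated start, 5′ to 3′ on the gene's own strand, from RefSeq (GRCh38.p14). Capitals mark matches to TGACG, the CRE half-site, on either strand.
DUSP1: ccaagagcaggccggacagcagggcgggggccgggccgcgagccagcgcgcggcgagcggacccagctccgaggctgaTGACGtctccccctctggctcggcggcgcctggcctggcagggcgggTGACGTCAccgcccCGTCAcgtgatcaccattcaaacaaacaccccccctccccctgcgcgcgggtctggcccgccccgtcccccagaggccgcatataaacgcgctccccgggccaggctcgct
DUSP8: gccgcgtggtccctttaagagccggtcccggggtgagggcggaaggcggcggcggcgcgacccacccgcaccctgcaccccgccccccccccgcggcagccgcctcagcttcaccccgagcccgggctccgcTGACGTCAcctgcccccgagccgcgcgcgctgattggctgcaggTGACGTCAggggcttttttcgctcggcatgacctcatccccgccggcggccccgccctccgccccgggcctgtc
DUSP16: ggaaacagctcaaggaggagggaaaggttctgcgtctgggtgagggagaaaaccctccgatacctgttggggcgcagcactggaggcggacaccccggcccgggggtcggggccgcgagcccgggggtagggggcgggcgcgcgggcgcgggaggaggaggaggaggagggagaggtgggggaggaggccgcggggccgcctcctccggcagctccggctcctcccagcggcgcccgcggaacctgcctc
They lie on the minus strand at chr5:172771196-172771445 (DUSP1), chr11:1572272-1572521 (DUSP8) and chr12:12562864-12563113 (DUSP16).

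Windows from 250 bases before to 50 after a start were on hand for 8 of the 10 members, DUSP4 and DUSP5 being without one, and DUSP10 had windows for 2 starts. The full palindrome TGACGTCA was found at 1 place in the DUSP1 window, 125 to 118 bases before the start, and at 2 places in the DUSP8 window, and in no other member's window. Of all 35116 RefSeq windows of this length 1.85% hold it, and 24.6% hold the half-site TGACG, which also lies inside the palindrome on both strands. Outside DUSP1 and DUSP8 the half-site matched only in 1 of the 2 DUSP10 windows. Of the other motifs searched on both strands, CACGTG (an E-box; 7.26% of all windows) matched in DUSP1, where it overlaps the last half-site, and in DUSP2, and CGGAAG (an ETS core; 19.5%) matched in DUSP6 and DUSP8. All 250 bases before the DUSP6 start used here lie in annotated exons, so its match is inside exon sequence. An NF-κB site matched in DUSP7 (11.3% of all windows), while TGANTCA (AP-1; 7.71%) and the CArG box (1.29%) matched in no member's window. These are matches of letters, not sites shown to be bound, and their part in the differences was not tested. DUSP1 and DUSP8, whose windows hold the palindrome, were lower in all inhibitor libraries. So were DUSP6, DUSP7, DUSP10 and DUSP14, whose windows lack it, while DUSP2 and DUSP16, which also lack it, were not. Of all genes tested, 26.7% lay wholly lower in this way. DUSP6 was not among the genes tested, and DUSP14 differed little (log2 difference −0.22).

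Whole reads could be recovered from the deposited FPKM values (fragments corrected for gene length in kilobases and for library depth), 14087260 to 15724750 per library. Inhibitor replicate 2 stood apart: over the 13578 genes tested its log2 values correlated with those of the other inhibitor libraries at r = 0.904 and 0.906, against 0.980 between those and 0.980 to 0.983 among the DMSO libraries (across genes, which are not independent replicates). Mitochondrial transcripts took 11.3% of its reads against 4.70% to 6.03% elsewhere, and the members' differences and the counts of calls below are therefore also given without it, a choice that rests on the data. Of the markers of the labelled cell type, KRT8 (253 to 283 FPKM under DMSO, 317 to 439 with inhibitor), KRT18 (244 to 267 and 319.6 to 451) and KRT7 (154 to 177 and 101 to 105) were abundant, but KRT19 was at 0 in every library and EPCAM and CDH1 reached at most 0.341 and 0.496 FPKM. With all libraries KRT7 was called lower (log2 difference −0.66, limma adjusted p = 0.0151), and without inhibitor replicate 2 KRT8 and KRT18 were also called, higher (0.29 and 0.33). CDKN2A, which BxPC-3 is known to lack, stood at 24.7 to 118 FPKM. The name of the line is therefore used only as the label gives it. COL1A2 and the leukocyte marker PTPRC were at or near 0 throughout, whereas the fibroblast markers COL1A1 and PDGFRB measured 4.23 to 4.49 and 0.861 to 1.19 FPKM under DMSO and 5.39 to 10.4 and 4.09 to 5.09 FPKM in the inhibitor libraries; their part in the results was not tested. PRMT5 itself was at 24.7 ± 1.5 FPKM under DMSO against 12.7 ± 0.611 FPKM in the inhibitor libraries (SD, n = 3 each), and at 12.7 FPKM without inhibitor replicate 2.

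In the DMSO libraries DUSP1 was by far the most abundant member, and the summed level of the 10 transcripts was 575 to 625 FPKM, of which DUSP1 alone gave 63.8% to 65.7%. Next came DUSP5 (mean 109 FPKM), DUSP2 (36.6), DUSP16 (19.8), DUSP14 (16.3), DUSP4 (8.65), DUSP7 (7.57), DUSP8 (6.33) and DUSP10 (4.77), with DUSP6 last at 0.568 FPKM. The DMSO libraries of neighbours in this order did not overlap, except for DUSP4 with DUSP7 and DUSP7 with DUSP8. With the inhibitor the sum stood at 193 to 280.1 FPKM and DUSP1 gave 50.4% to 52.7% of it. In the order of the inhibitor means DUSP5 (17.0 FPKM) came after DUSP2 and DUSP16 (20.7 FPKM), and DUSP4 after DUSP10. The inhibitor libraries overlapped for DUSP16 with DUSP5, DUSP5 with DUSP14, DUSP7 with DUSP8 and DUSP10 with DUSP4, so these neighbours are not set apart. Leaving out inhibitor replicate 2 turned the first of these pairs, with means of 18.5 FPKM for DUSP5 and 18.4 FPKM for DUSP16. In bulk RNA, fewer cells with a transcript and less of it in each cell cannot be told apart.

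**Figure D1:**
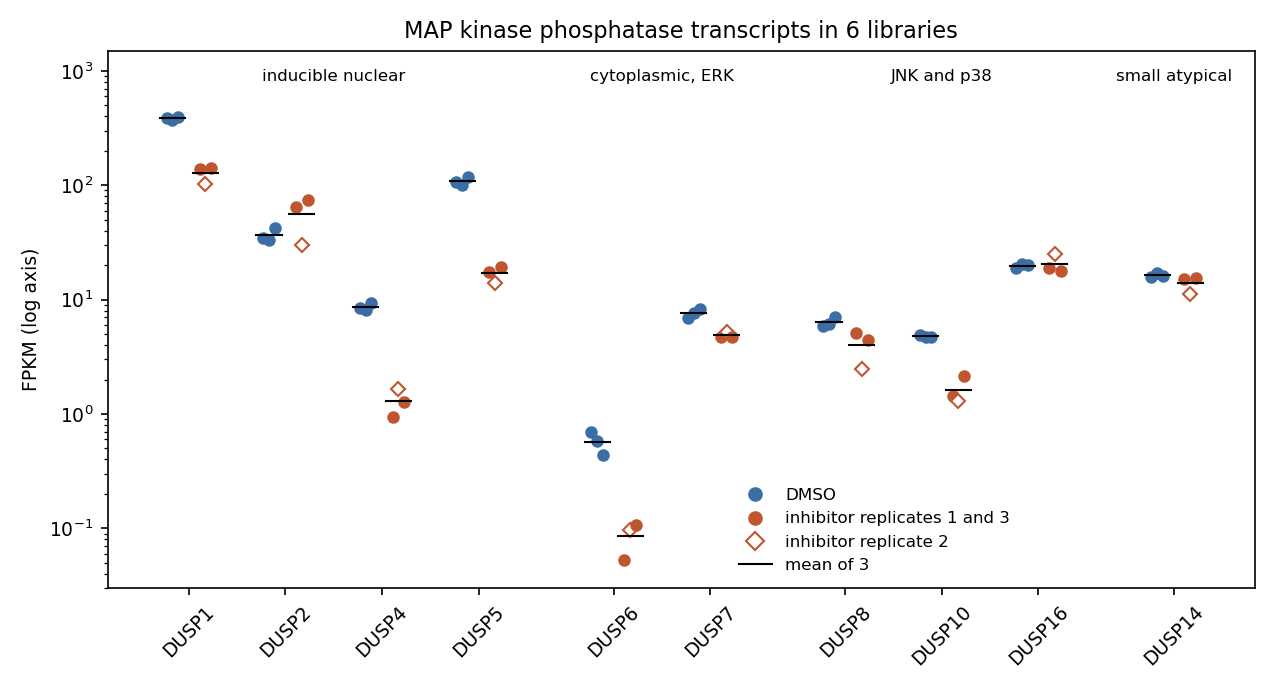
FPKM of the 10 phosphatase transcripts (vertical log axis) in each DMSO library (blue) and inhibitor library (orange; replicate 2 as an open diamond), with the mean of each group as a bar and members ordered by class. All members but DUSP2 and DUSP16 lie lower in all 3 inhibitor libraries than in any DMSO library, DUSP8 and DUSP14 by the least, and DUSP2 lies higher in 2 of them.

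Among the inducible nuclear enzymes, DUSP1, DUSP4 and DUSP5 were lower in every inhibitor library while DUSP2 was not. DUSP1 (ENSG00000120129, chr5:172768090-172771195, hg38), which acts on p38 and JNK as well as ERK, measured 389, 376 and 399 FPKM under DMSO and 138, 102 and 141 FPKM in the inhibitor libraries. The groups were far apart, the lowest DMSO library lying well above the highest inhibitor library. The means differed 3.06-fold, and the difference of log2(FPKM + 1), the scale of all log2 differences here, was −1.62 (SE 0.16), or −1.47 without inhibitor replicate 2.

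DUSP5 (ENSG00000138166, chr10:110497838-110511544), an ERK-specific nuclear phosphatase that also anchors ERK in the nucleus, measured 108, 101 and 118 FPKM under DMSO and 17.5, 14.0 and 19.4 FPKM in the inhibitor libraries. No inhibitor library came near the DMSO range. This was a 6.41-fold difference of means (log2 difference −2.62, SE 0.15; −2.50 without inhibitor replicate 2), at rank 14 from the lowest of the 13578 log2 differences. The pseudogene DUSP5P1, at 0.853 to 3.02 FPKM over the 6 libraries, could share reads with it.

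DUSP4 (ENSG00000120875, chr8:29333064-29350668), a nuclear relative of DUSP1 that is itself an ERK-induced gene, measured 8.45, 8.17 and 9.34 FPKM under DMSO and 0.942, 1.66 and 1.28 FPKM in the inhibitor libraries. It was low in all 3 inhibitor libraries, with 112 to 161 reads there against 868 to 1004 in DMSO. Its means differed 6.68-fold (log2 difference −2.08, SE 0.15; −2.19 without inhibitor replicate 2). For genes at levels like this the added 1 FPKM understates the change: with a pseudocount of 0.1 the log2 difference of DUSP4 was −2.68.

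DUSP2 (ENSG00000158050, chr2:96143166-96145440), best known from activated lymphocytes, went the other way in some libraries. It measured 34.4, 32.9 and 42.6 FPKM under DMSO and 64.9, 29.8 and 73.7 FPKM in the inhibitor libraries. Inhibitor replicates 1 and 3 lay above all DMSO libraries and inhibitor replicate 2 below all of them, so the groups overlapped. The log2 difference was 0.51 (SE 0.34) with all libraries and 0.91 (SE 0.12) without inhibitor replicate 2, where the means differed 1.89-fold.

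Of the ERK-directed cytoplasmic enzymes, DUSP6 was hardly expressed and DUSP7 was moderately lower with the inhibitor. DUSP6 (ENSG00000139318, chr12:89347232-89353271), the classical ERK feedback phosphatase, had 50, 39 and 30 reads in DMSO and 4, 6 and 8 with the inhibitor, which is 0.690, 0.575 and 0.437 FPKM against 0.0527, 0.0968 and 0.106 FPKM. The groups did not overlap and the means differed 6.67-fold (7.16-fold without inhibitor replicate 2), but DUSP6 lay below 1 FPKM in every library and was the 1 member not carried into the fit.

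DUSP7 (ENSG00000164086, chr3:52048919-52056550) measured 6.89, 7.61 and 8.22 FPKM under DMSO and 4.75, 5.23 and 4.67 FPKM in the inhibitor libraries. All 3 inhibitor libraries lay below all DMSO libraries, by less than for DUSP1, DUSP4 or DUSP5. The means differed 1.55-fold (log2 difference −0.54, SE 0.11; −0.58 without inhibitor replicate 2).

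DUSP9, the remaining classical enzyme of this cytoplasmic class and not a member of the set, measured 26.1, 25.9 and 31.3 FPKM under DMSO and 70.4, 34.6 and 72.1 FPKM in the inhibitor libraries. It was thus the most abundant cytoplasmic ERK phosphatase transcript in both groups, and higher in all 3 inhibitor libraries. Its log2 difference of 0.99 (SE 0.29) did not pass the threshold with all libraries (limma, adjusted p = 0.0630). It did without inhibitor replicate 2 (1.33, adjusted p = 0.000533), as also when a smooth trend on gene length was removed (1.14, adjusted p = 0.0143) and with quantile normalization (1.16, adjusted p = 0.0272). In the other 14 of 17 alternatives DUSP9 was not called.

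Within the class that prefers JNK and p38, DUSP10 was lower with the inhibitor, DUSP8 somewhat lower and DUSP16 nearly level. DUSP10 (ENSG00000143507, chr1:221701424-221742176) measured 4.91, 4.71 and 4.68 FPKM under DMSO and 1.42, 1.31 and 2.15 FPKM in the inhibitor libraries. Every inhibitor library was below every DMSO library, on 51 to 102 reads against 201 to 224. The means differed 2.93-fold (log2 difference −1.15, SE 0.15; −1.06 without inhibitor replicate 2).

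DUSP8 (ENSG00000184545, chr11:1554044-1571920) measured 5.83, 6.17 and 6.98 FPKM under DMSO and 5.08, 2.49 and 4.45 FPKM in the inhibitor libraries. The groups did not overlap, but inhibitor replicate 2 was much lower than the other 2 inhibitor libraries. The log2 difference was −0.59 (SE 0.22) with all libraries and −0.35 (SE 0.10) without inhibitor replicate 2. Reads of DUSP8 are uncertain, since the pseudogene DUSP8P5 was listed at 3.95 to 4.95 FPKM under DMSO and 2.02 to 5.54 FPKM in the inhibitor libraries, and the antisense gene KRTAP5-AS1, which overlaps it, had 4 to 6 reads in DMSO and 19 to 54 with the inhibitor. The part of either in the DUSP8 values was not tested.

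DUSP16 (ENSG00000111266, chr12:12474210-12562383), the most abundant of this class, measured 18.7, 20.4 and 20.2 FPKM under DMSO and 19.0, 25.3 and 17.8 FPKM in the inhibitor libraries. The groups overlapped. The log2 difference was 0.04 (SE 0.15), and −0.10 without inhibitor replicate 2, so its sign depended on that library.

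DUSP14 (ENSG00000276023, chr17:37489831-37513501), the small atypical enzyme, measured 15.7, 17.2 and 16.1 FPKM under DMSO and 15.2, 11.2 and 15.5 FPKM in the inhibitor libraries. Inhibitor replicates 1 and 3 lay just below the lowest DMSO library and replicate 2 well below it. The log2 difference was −0.22 (SE 0.15) with all libraries and −0.08 (SE 0.07) without inhibitor replicate 2.

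**Figure D2:**
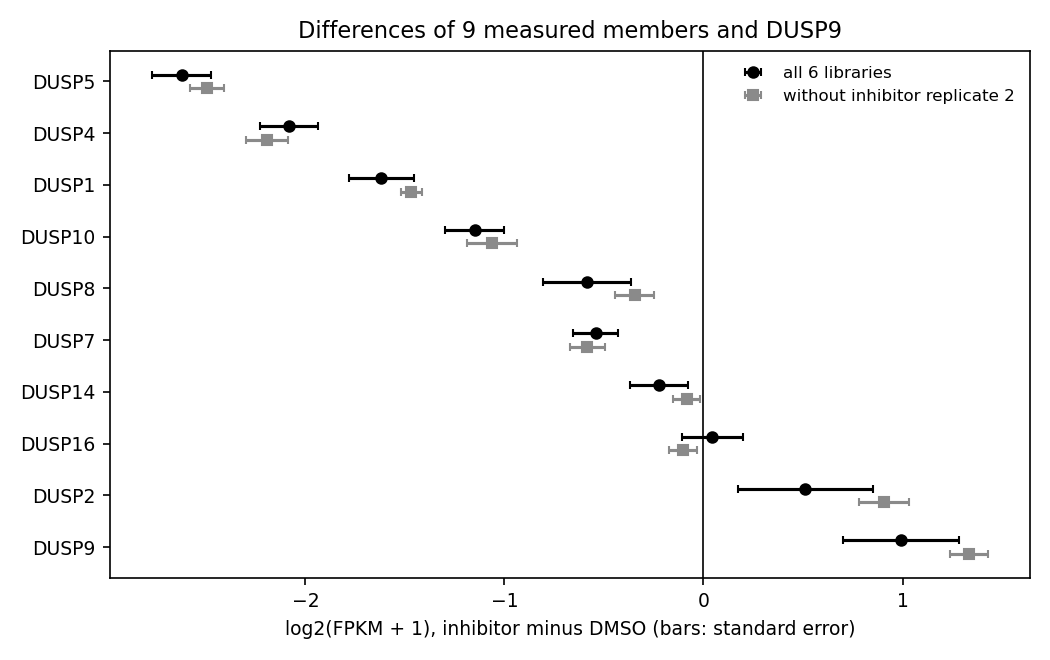
Difference of log2(FPKM + 1), inhibitor minus DMSO (horizontal axis), with its standard error, for the 9 members carried into the fit and DUSP9, with all 6 libraries (black) and without inhibitor replicate 2 (grey). DUSP5 (−2.62), DUSP4 (−2.08), DUSP1 (−1.62) and DUSP10 (−1.15) lie far to the left, and DUSP2 and DUSP9 lie to the right.

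Over all genes tested, 17.2% were called at an adjusted p under 0.05, 10.0% lower and 7.18% higher with the inhibitor (limma, Benjamini-Hochberg). Of the 9 members in the fit, DUSP1, DUSP4, DUSP5, DUSP7 and DUSP10 were past that threshold, all 5 lower, and 0 were higher. Without inhibitor replicate 2 the member counts were 6 lower, with DUSP8 added, and 1 higher, DUSP2, where 40.6% of all genes were called, 23.1% lower and 17.5% higher. The median log2 difference was −0.59 over the 9 members and −0.05 over all genes tested. In 8 of the 10 members, all but DUSP2 and DUSP16, the inhibitor libraries lay wholly below the DMSO libraries, as they did in 26.7% of all genes tested (45.9% did not overlap in either direction). These 8 include DUSP6, which was not among the genes tested. Since the members were chosen with this contrast known, nothing is read from these counts. The DUSP7 call was lost without any 1 of the DMSO libraries or of inhibitor replicates 1 and 3 (log2 differences −0.49 to −0.60), whereas DUSP1, DUSP4, DUSP5 and DUSP10 stayed past the threshold in all 6 fits that left out 1 library. These fits too describe members chosen with the contrast known and do not test them.

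Among the members and DUSP9, inhibitor replicate 2 lay furthest below its group in DUSP2, DUSP9 and DUSP8. Relative to the mean of inhibitor replicates 1 and 3, its log2(FPKM + 1) was lower by 1.19 for DUSP2 (1932 bases listed), by 1.02 for DUSP9 (2776), by 0.72 for DUSP8 (4616) and by 0.45 for DUSP1 (2019). It was higher by 0.44 for DUSP16 (5724), by 0.34 for DUSP4 (7257) and by 0.12 for DUSP7 (5648). Over all genes tested the median of the same difference was −0.10 for those of 42 to 1482 bases, −0.37 for 1483 to 3315, −0.12 for 3316 to 5091, 0.06 for 5092 to 7455 and 0.31 for 7457 or more. The medians thus ran upward with length only from the second of these bins on, and DUSP8 lay below the median of its bin, the third. With the smooth trend on length removed, the log2 difference between inhibitor and DMSO was 0.69 for DUSP2, −0.51 for DUSP8 and 0.10 for DUSP16. The part of transcript length in the values of these members beyond that correction was not tested.

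**Figure D3:**
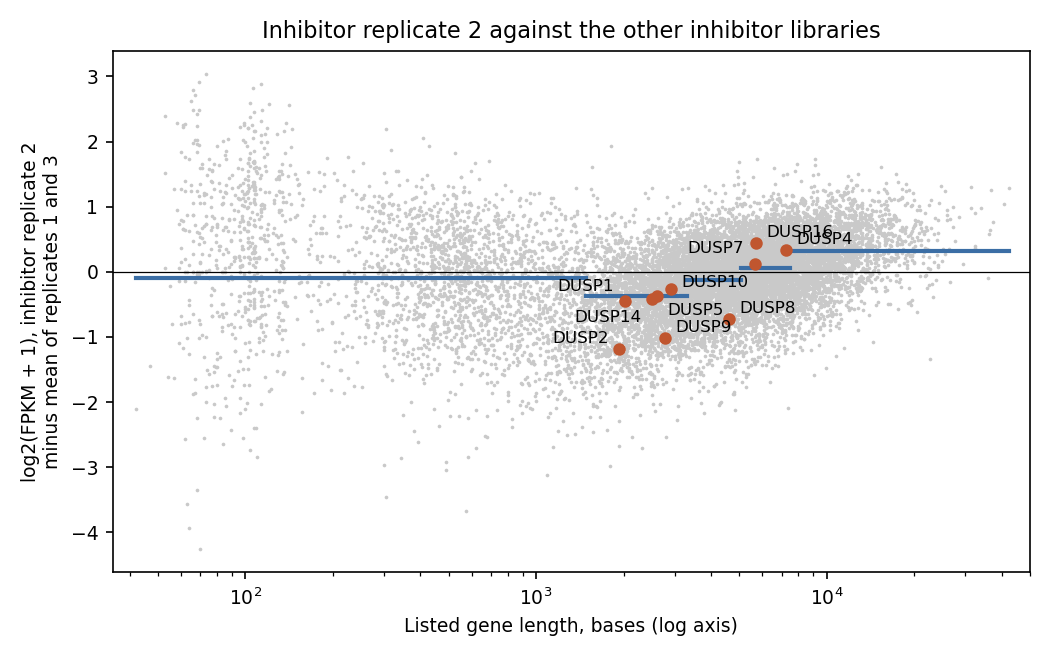
Inhibitor replicate 2 minus the mean of inhibitor replicates 1 and 3 in log2(FPKM + 1) (vertical axis) against listed gene length in bases (log axis), for all genes tested (grey), 9 members and DUSP9 (orange), with blue lines for the medians of 5 equal bins of genes by length. DUSP2, DUSP9 and DUSP8 lie below the medians for their lengths, and DUSP4, DUSP7 and DUSP16 lie above 0.

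In their gene models most members are compact. All except DUSP8 and DUSP16, with 7 exons each, have 2 to 4 exons in the principal GENCODE 29 transcript, against a median of 9 over 10455 tested genes. Their spans run from 2275 bases for DUSP2 and 3106 for DUSP1 to 88174 for DUSP16, and only 3.83% of tested genes span as little as DUSP1 or less. The nonamer TTATTTATT, an AU-rich element linked to rapid mRNA decay, occurs in the 3′ UTR of DUSP1 (2 copies), DUSP4 and DUSP8 (1 each), and in 8.47% of tested genes. DUSP5 and DUSP7 hold no ATTTA pentamer in the 3′ UTR, whereas 69.5% of tested genes hold at least 1, and DUSP1 has 5.95 per kilobase against a median of 1.58. The other members in the fit hold 3 to 6 copies of the pentamer, against a median of 2 over the tested genes. Per kilobase, DUSP4 (1.51), DUSP8 (1.62) and DUSP16 (1.91) lay near the median, and DUSP10 (3.04), DUSP2 (4.57) and DUSP14 (4.75) above it. The part of the pentamer in the differences was not tested.

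The transcripts whose pattern over the 6 libraries was most like that of each abundant member were found by Pearson correlation of log2 values, which describes these 6 libraries and carries no test. For DUSP1 they were WFDC1, the lysosomal transporter PQLC2 and the immediate early nuclear receptor NR4A2 (r = 0.999 each). DUSP5 was most like MYEOV, RAB7A and CAPN2 (r = 0.999 or above), of which MYEOV had a like-sized log2 difference (−2.53) and RAB7A, a late endosomal GTPase, a much smaller one (−0.65). For DUSP2 they were LAMB3, NOTUM and FDFT1 (r = 0.998 to 0.999), each of them lowest in inhibitor replicate 2. For DUSP16 they were SRPK2, ZNF888 and DAPK1 (r = 0.985 to 0.989), each highest in that library.

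The other dual-specificity phosphatases gave no call with all libraries. Of 21 genes listed, 10 could be tested. Of these, 0 were called higher and 0 lower, where 7.18% and 10.0% of all genes tested were. The list's median log2 difference was −0.13. DUSP9 and DUSP3, an atypical phosphatase of ERK and JNK (18.7 ± 1.0 to 16.4 ± 2.19 FPKM; SD, n = 3 each; log2 difference −0.18, limma adjusted p = 0.36), were the most abundant. Without inhibitor replicate 2, DUSP9 and STYXL1 were called higher and DUSP12 lower, genes named after their values were seen. The shares of all genes tested were then 17.5% higher and 23.1% lower. In the limma fit with all libraries, 2 of the 10 were higher and 2 lower at an unadjusted p under 0.05, where 4697 of all 13578 genes stood, and limma-voom on the recovered reads also called 0.

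Of the MAP kinase genes, atypical family members included, 1 of 13 tested was called higher and 0 lower, where 7.18% and 10.0% of all genes tested were. MAPK4, an atypical family member, rose from 1.90 ± 0.136 to 3.32 ± 0.452 FPKM (log2 difference 0.57, limma adjusted p = 0.0278). The median of the list was −0.21, and 2 were higher and 1 lower at an unadjusted p under 0.05. MAPK3, which encodes an ERK kinase (27.2 to 32.3 FPKM), had a log2 difference of 0.23 and the p38 gene MAPK14 of 0.04; both were named after their values were seen. Without inhibitor replicate 2, MAPK3, MAPK4, MAPK9 and MAPK15 were called higher and MAPK6 lower, where 17.5% and 23.1% of all genes tested were. The MAPK4 call was lost without any 1 of the other 5 libraries (log2 differences 0.54 to 0.63).

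Upstream of the MAP kinases, MAP2K3 and MAP2K6 of the p38 branch differed in opposite directions. MAP2K3, which phosphorylates p38, fell from 39.3 ± 1.91 to 12.2 ± 1.85 FPKM (log2 difference −1.62, limma adjusted p = 0.00231), and MAP2K6, its close relative, rose from 0.298 ± 0.0374 to 3.0 ± 1.41 FPKM (1.57, limma adjusted p = 0.0110). MAP2K6 lay below 1 FPKM in every DMSO library and passed the filter only through the inhibitor libraries. Its p-value therefore carries that selection. The JNK kinase MAP2K7 (−0.72, adjusted p = 0.0302) and MAP3K3 (−0.61, adjusted p = 0.0275) also fell. That made 3 lower and 1 higher of 25 tested, where 10.0% and 7.18% of all genes tested were, with a median of −0.09. Without inhibitor replicate 2 the counts were 10 lower and 3 higher, with MAP2K4 and MAP2K6 among the latter. The shares of all genes tested were then 23.1% lower and 17.5% higher. MAP2K3 was called without each library in turn (−1.50 without inhibitor replicate 2), MAP2K6 lost its call without any 1 DMSO library (1.55 to 1.59), and MAP2K7 and MAP3K3 kept their calls without inhibitor replicate 2 (−0.56 and −0.57) and lost them without any 1 of the other 5 libraries.

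Other phosphatases that act on MAP kinases, from the tyrosine and serine/threonine families, had 3 falls and 0 rises among 10 tested (4 and 0 at an unadjusted p under 0.05), with a median of −0.21. Of all genes tested, 10.0% were called lower and 7.18% higher. PTPRR, a receptor-type tyrosine phosphatase of ERK, fell from 1.55 ± 0.0715 to 0.317 ± 0.10 FPKM (log2 difference −0.95, limma adjusted p = 0.00764), the catalytic subunit gene PPP2CB from 18.6 ± 0.305 to 11.8 ± 1.44 FPKM (−0.62, adjusted p = 0.0199) and PTPN1 from 27.9 ± 1.48 to 20.4 ± 1.43 FPKM (−0.43, adjusted p = 0.0415). PTPRR lay below 1 FPKM in every inhibitor library and passed the filter only through the DMSO libraries, a selection that its p-value carries. Without inhibitor replicate 2 the count was 5 lower, with PTPRJ and PPP2CA added, and 0 higher. The shares of all genes tested were then 23.1% lower and 17.5% higher. PTPRR lost its call without DMSO replicate 1 (−0.93), PPP2CB without any 1 DMSO library or inhibitor replicate 3 (−0.61 to −0.63) and PTPN1 without any library but inhibitor replicate 2 (−0.39 to −0.48).

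The Sprouty and Spred genes encode feedback inhibitors of the receptor and Ras steps, and ERRFI1, another feedback gene, was listed with them. Of the 5 tested (SPRY2, SPRY4, SPRED1, SPRED2 and ERRFI1), 3 fell and 0 rose (3 and 0 at an unadjusted p under 0.05), with a median of −1.07. ERRFI1, named after its values were seen, was the most abundant and was not called (51.4 to 48.0 FPKM, log2 difference −0.11). Of all genes tested, 10.0% were called lower and 7.18% higher. SPRY2 went from 2.10 ± 0.415 to 0.188 ± 0.0981 FPKM (log2 difference −1.38, limma adjusted p = 0.00492), SPRED2 from 8.44 ± 0.248 to 3.53 ± 0.586 FPKM (−1.07, adjusted p = 0.00547) and SPRY4 from 1.5 ± 0.148 to 0.193 ± 0.0821 FPKM (−1.07, adjusted p = 0.00625). SPRY2 and SPRY4 lay below 1 FPKM in every inhibitor library and passed the filter only through the DMSO libraries. The count, the median and the p-values of both rest in part on that selection. SPRED1 was added without inhibitor replicate 2, which made 4 lower and 0 higher, where 23.1% and 17.5% of all genes tested were. SPRY2, SPRED2 and SPRY4 were called without each library in turn, at −1.34, −0.96 and −1.08 without inhibitor replicate 2.

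Among transcription factors known to act on promoters of these phosphatases, 9 of 24 tested fell and 1 rose, with a median of −0.47. Of all genes tested, 10.0% were called lower and 7.18% higher. The AP-1 subunits JUN (30.0 ± 1.62 to 5.87 ± 0.846 FPKM; log2 difference −2.18, limma adjusted p = 0.000840) and FOSL1 (41.7 ± 3.72 to 9.62 ± 1.87 FPKM; −2.02, adjusted p = 0.00194) and the ETS factors ETV5 (−1.39, adjusted p = 0.00222) and ETV4 (−1.21, adjusted p = 0.00467) had the smallest adjusted p-values. CREB1 and ATF1, which bind the CRE, had log2 differences of 0.02 and 0.10 and were not called. Of the same family, ATF2 (0.03) was not called, but ATF3 was called lower. ATF3 measured 19.4 FPKM under DMSO and 7.94 FPKM with the inhibitor (−1.22, limma adjusted p = 0.0110). Without inhibitor replicate 2 the values were −0.16 for CREB1, 0.04 for ATF1, −0.15 for ATF2 and −1.01 for ATF3. CREB1, ATF1, ATF2 and ATF3 were named after their values were seen. Without inhibitor replicate 2 the counts were 15 lower and 3 higher, with JUND and NR3C1 among the latter. The shares of all genes tested were then 23.1% lower and 17.5% higher. JUN, FOSL1, ETV5 and ETV4 were called without each library in turn, at −2.12, −1.89, −1.47 and −1.09 without inhibitor replicate 2.

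Kinases activated by MAP kinases and scaffold genes gave 1 fall among 12 tested and 0 rises (4 and 0 at an unadjusted p under 0.05), where 10.0% and 7.18% of all genes tested were called lower and higher, with a median of −0.15. The 1 was MAPKAPK5 (2.36 ± 0.0738 to 1.52 ± 0.122 FPKM; log2 difference −0.41, limma adjusted p = 0.0497), whose call held without inhibitor replicate 2 (−0.37) and was lost without any 1 of the other 5 libraries. Leaving out inhibitor replicate 2 gave 4 lower (MAPKAPK2, MAPKAPK5, LAMTOR3 and SPAG9) and 1 higher (MKNK2), where 23.1% and 17.5% of all genes tested were.

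**Figure D4:**
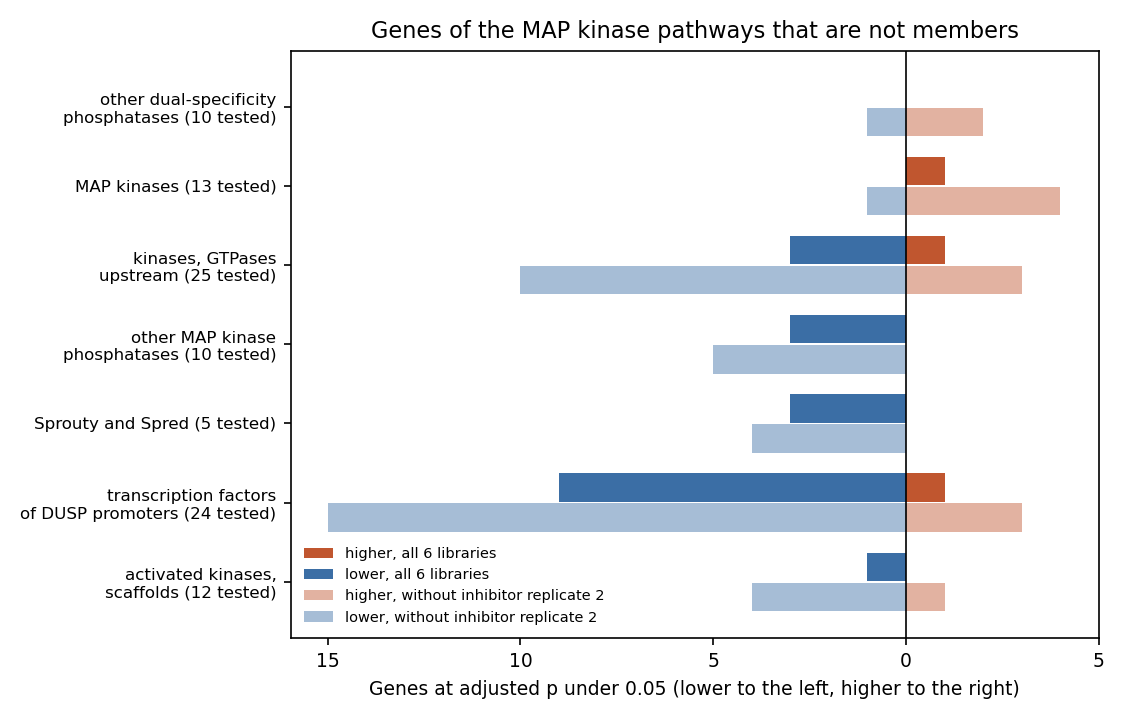
Number of genes called lower (left, blue) and higher (right, orange) at an adjusted p under 0.05 in 7 lists of MAP kinase pathway genes that are not members, with all 6 libraries (dark) and without inhibitor replicate 2 (pale). Transcription factors show 9 lower and 1 higher of 24 with all libraries, and the other dual-specificity phosphatases 0 of 10. Of all genes tested, 10.0% were lower and 7.18% higher with all libraries. The list labelled Sprouty and Spred also holds ERRFI1.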

How the data were processed

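The authors deposited a table of FPKM values per gene for 6 libraries, with gene coordinates and a listed gene length. The build is hg38, per the submitters' processing notes; aligner, counter and use of strand are each not given in the sources used here, although the kit was directional, per the labels' protocols. FPKM times listed length gave whole reads, within 0.01 of a read, for 100% of values, 14087260 to 15724750 reads per library. Genes reaching 1 FPKM in 3 libraries or more (13578) were tested on log2(FPKM + 1) with limma 3.58.1 (R 4.3.3; lmFit, eBayes with a trend, two-sided), inhibitor against DMSO, with Benjamini-Hochberg adjustment and a threshold of 0.05. The code was tested on simulated data. The 9 members in the fit, PRMT5 and the list genes named by rule were each recomputed under up to 17 alternatives. Other genes in the text were not followed through these alternatives, and for some the fit without inhibitor replicate 2 is given. No batch is named in the labels.

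The members and 7 lists (121 genes) were chosen with earlier results of these data known. Named by rule were the members, PRMT5, up to 4 called genes per list with the smallest adjusted p (where none was called, the 2 most abundant) and, for the 4 most abundant members, the 3 most correlated genes. Other list genes in the text were named after their values were seen. Some list genes that enter the counts are not reported here by name. Gene models came from GENCODE 29 and promoter windows from RefSeq. Figures used Python 3.11.15 and matplotlib 3.10.9.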

Additional observations from a re-analysis of the deposited data

How the results depend on the processing

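Of 152 values of the 9 members under the alternatives, 143 kept their direction and side of the threshold; DUSP7 lost its call in 6, DUSP2 and DUSP8 gained one without inhibitor replicate 2, and DUSP16 (0.04) turned to −0.10 without that library, the lowest of −0.10 to 0.14 with 1 library left out. The members were chosen with this contrast known, so these values describe them and do not test them. Of 317 values of 19 other genes (list genes named by rule and PRMT5), 262 kept direction and side, 52 lost the call, 3 gained one and 0 reversed. The number of genes called was 2339 with all libraries, 1533 with no filter, 1505 with a filter at 5 FPKM and 1478 with the replicate block, and 478 to 5513 when 1 library was left out. The highest was without inhibitor replicate 2, the values without DMSO replicates 1, 2 and 3 were 478, 510 and 579, and those without inhibitor replicates 1 and 3 were 1091 and 1299. Leaving out 1 library gave 0 to 1 members called higher. Calls among the other dual-specificity phosphatases were 0, but 1 with quantile normalization, 1 with the length trend removed and 0 to 3 with 1 library left out. MAP kinases gave 1, but 0 with no filter, with a filter at 5 FPKM and with the replicate block, 2 with quantile normalization and 0 to 5 with 1 library left out. Upstream kinases and GTPases gave 4, but 2 with no filter, 2 with the replicate block, 7 with the length trend removed and 1 to 13 with 1 library left out. Other phosphatases gave 3, and 0 to 5 with 1 library left out. The list of Sprouty and Spred genes with ERRFI1 gave 3, and 1 with a filter at 5 FPKM. Transcription factors gave 10, and 5 to 18 with 1 library left out. Activated kinases and scaffolds gave 1, but 0 with a pseudocount of 0.1 or 0.5, no filter, a filter at 5 FPKM, TPM scaling, the length trend removed, a robust prior or the replicate block, and 0 to 5 with 1 library left out. Apart from the filters and left-out libraries, which change the genes or samples tested, the cause was not tested. The labels give both groups replicates 1 to 3, and same-numbered libraries deviated together with r = −0.018, 0.157 and 0.248. Differently numbered pairs ran from −0.209 to 0.092. These values cannot settle whether libraries were paired, and beyond the numbers the labels used here name no pairs. The replicate block, under which DUSP7 lost its call, is therefore given as an alternative. DUSP6, with 4 to 8 reads in each inhibitor library, is limited by depth.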
